A study of Homo sapiens with 8 samples.

Results

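Poly(A) RNA of the neuroblastoma line CHP212 held 51 genes that were close to silent in unmodified cells and counted in every library of cells in which FAM193A had been knocked out. A gene was taken where none of the 4 wild-type (WT) libraries had more than 20 reads and none of the 4 knockout (KO) libraries had fewer than 100. Collagen, laminin, integrin and histone symbols were left aside, together with CDKN2A and CHGA, and of the 52 genes past both limits only CHGA was removed in this way. The remaining 51 are drawn from a table of 25369 genes, 4183 of which had 0 reads throughout. The genes were thus chosen by their read counts in the KO and WT libraries, and their KO and WT levels are given as a description, with no test. Their response to Nutlin-3a within the KO cells was not part of the choice, although a gene below 100 reads in either KO group could not enter. Nor could a gene that Nutlin-3a raised above 20 reads in WT cells.

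CHP212 is a human neuroblastoma line, a tumour of the sympathetic branch of the neural crest, and the 4 groups of 2 independent replicates were WT cells and FAM193A KO cells, each given DMSO at 0.2% or Nutlin-3a at 10 uM for 12 h. Nutlin-3a occupies the pocket of MDM2 that binds p53, so that p53 is no longer degraded and its target genes are transcribed. FAM193A is a gene that the study knocked out to follow this response. The labels do not say whether the KO cells are 1 clone or a pool, nor where the gene was cut. Neuroblastoma cells range between an adrenergic state, with HAND2 and the enzymes of catecholamine synthesis, and a mesenchymal state. Neural crest derivatives also include cholinergic neurons, glia and melanocytes, and genes for synaptic vesicles, axon guidance and secreted ligands are switched on and off along these paths.

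Libraries held 28390405 to 38010075 reads. FAM193A itself had 1138 to 1548 reads over the 8 libraries, KO libraries included, so its RNA level does not check the KO labels. The Nutlin-3a label was checked on CDKN1A, which went from 48.3 ± 0.319 to 1683 ± 41.6 CPM (counts scaled to library size after TMM, here and below as mean ± SD of n = 2) in KO cells. HAND2, a marker of adrenergic neuroblastoma, had 16042 to 32969 reads over the 8 libraries. TH, the first enzyme of catecholamine synthesis, had 6344 to 14512 reads in WT and 347 to 455 in KO libraries, whereas DBH, a later enzyme, had 10 to 26 and 928 to 1311. Marker sums moved between the genotypes: 8 epithelial markers summed to 681 to 909 RPM (reads scaled to the library total) in WT and 244 to 294 in KO, and 6 fibroblast markers to 392 to 514 and 258 to 365. Most epithelial reads were of KRT8, KRT18 and CLDN4, each lower in KO. EPCAM went the other way, with 16 to 48 reads in WT and 46 to 86 in KO. KRT19 had 120 to 309 and 26 to 165, and CDH1, KRT5 and KRT14 had at most 55 in any library. LUM was the fibroblast marker with the largest drop in reads, from 8076 to 11209 in WT to 2637 to 5326 in KO, whereas DCN was higher in KO, with 121 to 190 and 660 to 1372, as were FBLN1 and PDPN. Sums of 7 endothelial markers ran from 2.88 to 8.35 RPM in WT and from 7.45 to 9.51 in KO, and those of 8 leukocyte markers, 1 of them at 0 in all libraries, from 1.13 to 1.63 and from 1.95 to 3.20 with no overlap. Sums of 7 glial markers were between 1.09 and 3.84 RPM over all libraries. The part of these markers in what follows was not tested, and in bulk RNA fewer cells of a type and less RNA per cell cannot be told apart. Some genes had at least 20 reads in 1 replicate and at most 2 in the other. They numbered 39 in WT Nutlin-3a replicate 1, 18 in WT DMSO replicate 2, 17 in KO Nutlin-3a replicate 2, 2 in WT DMSO replicate 1 and 0 in the other libraries. The limits that chose the 51 kept them out of these counts in KO, and in WT unless a gene had exactly 20 reads. That 0 of the 51 were among them is therefore no check on the set.

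The 51 genes summed to 388, 379, 417 and 416 reads in the WT libraries (DMSO replicates 1 and 2, then Nutlin-3a replicates 1 and 2, the order used throughout) and to 15213, 16758, 17011 and 14166 in the KO libraries, or 12.4 to 14.7 against 432 to 482 RPM. The WT sum was 2.97% of the KO sum at equal depth. Silence in WT was mostly not complete: LINC00613 alone had 0 reads in all 4 WT libraries, and 8 genes had 0 reads in at least 1 of them. The ratio of KO to WT reads at equal depth ran from 6.63 (CHN2, with 17, 16, 15 and 13 WT reads and 113, 127, 124 and 109 KO reads) to 865 (NR5A2, with 0, 0, 0 and 1 and 284, 271, 293 and 164), with a median of 33.8. The counting interval of the NR5A2 ratio reached from 155 to 34203, because it rests on 1 WT read. FDCSP had a ratio of 335, PLIN2 of 222 and FAM19A5 of 129, on 9, 12 and 49 WT reads in all. Intervals cover counting error only.

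**Figure D1:**
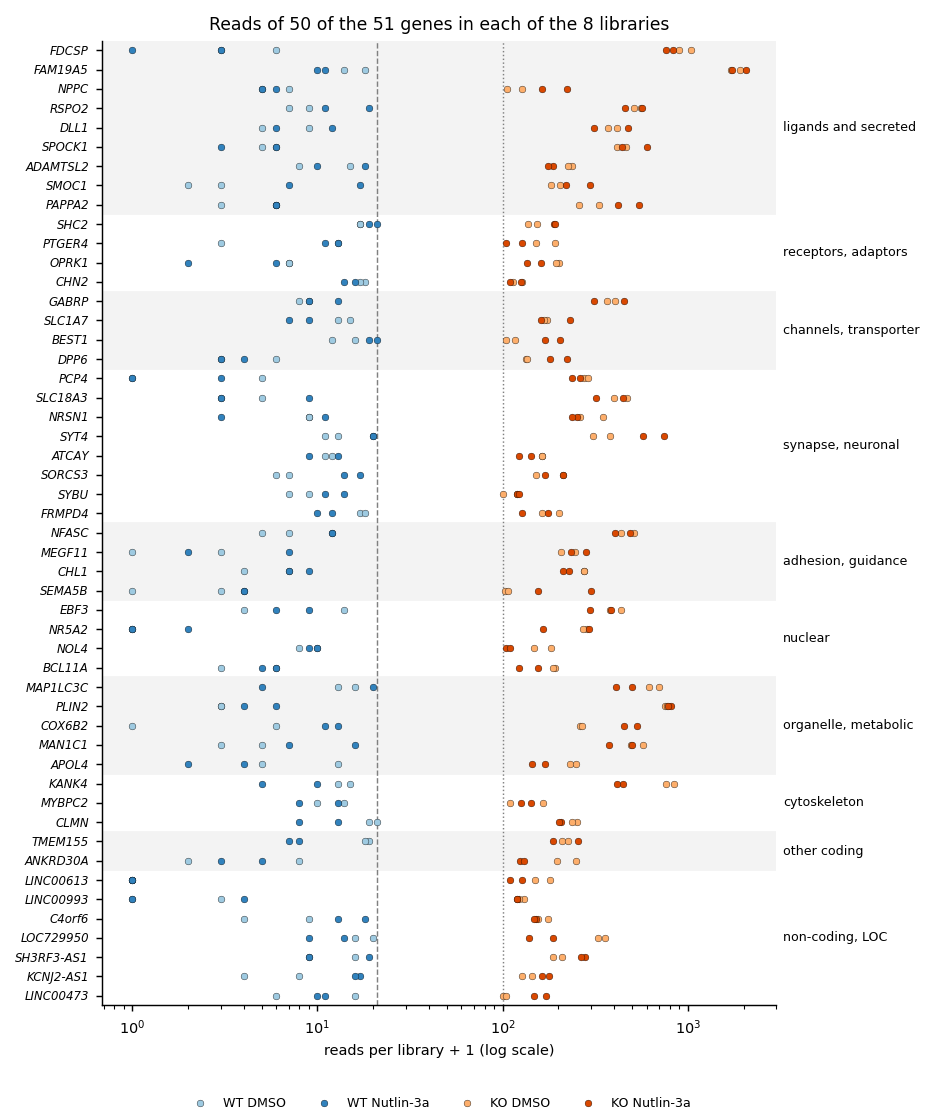
Reads per library, plus 1 and on a log axis, for 50 of the 51 genes in the 4 WT and 4 KO libraries, grouped by role. The dashed and dotted lines mark the limits of 20 and 100 reads that chose the genes, so the empty band between them is built in, and FAM19A5 stands highest in all 4 KO libraries.

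Per gene length, most of the 51 were present at low levels even in KO cells. RPKM, reads per kilobase of gene scaled to library depth, had a median of 1.53 in KO DMSO cells, and 12 genes were below 1. FDCSP, a small secreted peptide of follicular dendritic cells, was highest at 46.8 ± 2.46 RPKM (SD, n = 2). FAM19A5, a secreted brain peptide now named TAFA5, followed at 17.2 ± 0.430. MAP1LC3C, an LC3 protein of autophagosomes, had 15.1 ± 0.546 RPKM and PCP4, a small calmodulin-binding protein of neurons, 13.8 ± 0.227. These 4 were the genes at 10 RPKM or more, and SEMA5B was lowest at 0.498 ± 0.0134. The median gene length was 3598 bases here, against 2738 over the 21186 genes of the table with any reads. Read counts favour long genes under a fixed limit, and the part of length in this choice was not tested.

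With Nutlin-3a, 18 of the 51 genes passed the test in KO cells and 33 did not. By edgeR's quasi-likelihood test with Benjamini-Hochberg adjustment over 15879 genes (threshold 0.05), 12 of the 51 rose (23.5%, with 18.1% of all tested genes rising) and 6 fell (11.8%, with 20.6% falling). All 51 passed the filter on low counts, which their KO reads met. Their median log2 change was 0.01, against -0.01 over all tested genes, and only SEMA5B and SYT4 rose at least 2-fold. The KO groups did not overlap in CPM for 17 genes that were higher with Nutlin-3a (33.3%; 34.2% of all tested genes) and 18 that were lower (35.3%; 37.3%). Both shares of separated groups were near the background. None of the 51 was in a list of 145 known p53 targets, of which 144 were tested, 128 rose and 2 fell in KO cells, with a median log2 change of 1.48. The list was a small share of the 25369 genes of the table. A target with more than 20 reads in a WT library could not enter the set. Their absence is therefore not read as a result. Among the 7133 tested genes in the same CPM range as the 51, 20.9% rose and 18.3% fell.

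**Figure D2:**
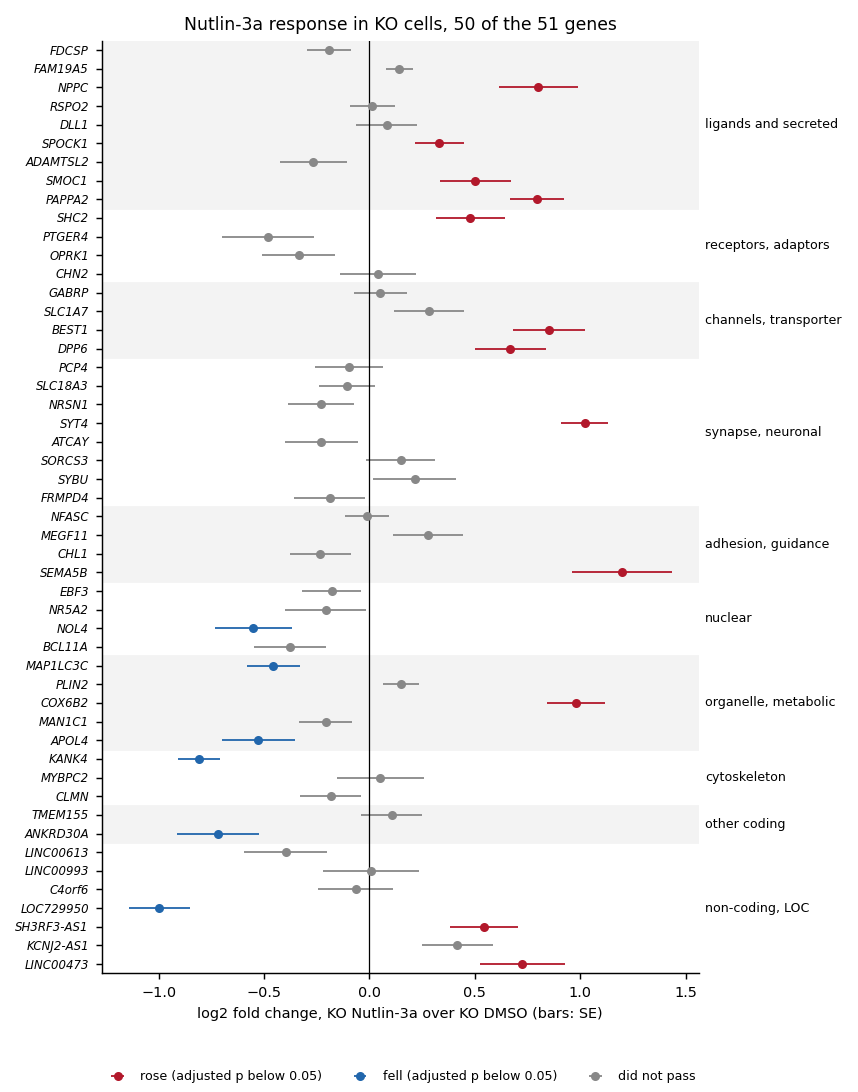
Log2 change with Nutlin-3a in KO cells for 50 of the 51 genes (points, with the standard error of the fit), grouped by role and coloured by the call at an adjusted p of 0.05. The values run from -0.996 for LOC729950 to 1.20 for SEMA5B, and 32 of the plotted genes were not called.

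Of 9 genes for secreted or cell-surface signals and matrix proteins, 4 rose and 0 fell. Over all tested genes, 18.1% rose and 20.6% fell. The role groups here and below hold 2 to 9 genes, too few to set against these shares. PAPPA2, a protease that frees insulin-like growth factors from their binding protein, had 257 and 330 reads with DMSO and 544 and 418 with Nutlin-3a in KO cells and 5, 2, 5 and 5 reads in the WT libraries. Both Nutlin-3a libraries were above both DMSO libraries, from 7.87 ± 0.975 to 13.7 ± 1.56 CPM, a log2 change of 0.80 ± 0.13 (SE; edgeR adjusted p = 5.88e-05). NPPC, which encodes C-type natriuretic peptide, had 127 and 105 reads with DMSO and 222 and 162 with Nutlin-3a, with 4, 6, 4 and 5 WT reads. The groups did not overlap, and NPPC rose by 0.80 ± 0.19 (adjusted p = 0.00221). SMOC1, a calcium-binding matrix protein that modulates BMP signals, had 203 and 181 reads with DMSO and 296 and 220 with Nutlin-3a, and SPOCK1, a testican proteoglycan, had 412 and 464 reads with DMSO and 599 and 443 with Nutlin-3a. In CPM, the Nutlin-3a values were the higher ones in both, at 8.04 and 6.61 against 5.67 and 4.70 for SMOC1 and at 16.3 and 13.3 against 11.5 and 12.0 for SPOCK1, with log2 changes of 0.50 ± 0.17 (adjusted p = 0.0234) and 0.33 ± 0.12 (adjusted p = 0.0312). SMOC1 was uneven among the WT libraries, with 1, 2, 16 and 6 reads.

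The other 5 of this group were not called. FDCSP had 896 and 1042 reads with DMSO and 759 and 834 with Nutlin-3a, and FAM19A5 had 1716 and 1919 reads with DMSO and 2053 and 1733 with Nutlin-3a, so the largest counts among the 51 changed by -0.19 ± 0.10 and 0.14 ± 0.06 on the log2 scale (adjusted p = 0.161 and 0.0873). DLL1, a ligand of NOTCH receptors, had 371 and 412 reads with DMSO and 474 and 311 with Nutlin-3a. Its Nutlin-3a replicates lay on both sides of the DMSO replicates, at 12.9 and 9.35 CPM against 10.4 and 10.7. RSPO2, an R-spondin that raises WNT signalling, had 514 and 556 reads with DMSO and 564 and 457 with Nutlin-3a, and ADAMTSL2, an ADAMTS-like matrix glycoprotein without protease activity, had 237 and 224 reads with DMSO and 186 and 176 with Nutlin-3a. Their log2 changes were 0.01 ± 0.11 and -0.27 ± 0.16.

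Of 4 genes for receptors and their signal transducers, 1 rose. SHC2, an adaptor of neurotrophin receptors, had 153 and 136 reads with DMSO and 188 and 192 with Nutlin-3a and 16, 16, 18 and 20 reads in WT. The KO groups did not overlap in CPM, and SHC2 rose by 0.48 ± 0.16 (edgeR adjusted p = 0.0268). OPRK1, the kappa opioid receptor, had 201 and 193 reads with DMSO and 161 and 134 with Nutlin-3a, and PTGER4, the EP4 receptor of prostaglandin E2, had 150 and 192 reads with DMSO and 127 and 104 with Nutlin-3a. Their log2 changes of -0.34 ± 0.17 and -0.48 ± 0.22 did not pass (adjusted p = 0.143 and 0.0947). CHN2, a chimaerin that restrains RAC, had a log2 change of 0.04 ± 0.18 and was not called. The list of 317 G protein-coupled receptor genes in the table had OPRK1 and PTGER4 among its 154 tested genes, of which 38 rose and 18 fell.

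Of 4 genes for ion channels, a channel subunit and a transporter, 2 rose and 0 fell. BEST1, a calcium-activated chloride channel, had 103 and 115 reads with DMSO and 204 and 168 with Nutlin-3a in KO cells and 15, 11, 18 and 20 reads in WT. Every Nutlin-3a value was above every DMSO value, and BEST1 rose by 0.85 ± 0.17 (edgeR adjusted p = 5.58e-04). BEST1 overlaps FTH1 on the opposite strand in the annotation, and FTH1 had 22502 to 37511 reads, so the assignment of BEST1 reads is uncertain where counting ignored strand. DPP6, a subunit of A-type potassium channels with no peptidase activity, had 133 and 135 reads with DMSO and 223 and 180 with Nutlin-3a and rose by 0.67 ± 0.17 (adjusted p = 0.00383). GABRP, the pi subunit of the GABA-A receptor, had 367 and 406 reads with DMSO and 449 and 310 with Nutlin-3a, and SLC1A7, a glutamate transporter, had 173 and 166 reads with DMSO and 230 and 161 with Nutlin-3a. Neither was called, at 0.05 ± 0.13 and 0.28 ± 0.17. The ion channel list held BEST1, GABRP and, by its prefix alone, the antisense RNA KCNJ2-AS1. In that list 47 of 175 tested genes rose and 16 fell, and in the solute carrier list 65 of 275 rose and 38 fell.

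Of 8 genes for vesicles, synapses and neuronal cytoplasm, 1 rose and 0 fell. SYT4, a synaptotagmin of neuronal and neuroendocrine vesicles, had 305 and 380 reads with DMSO and 741 and 572 with Nutlin-3a in KO cells and 10, 12, 19 and 19 reads in WT. The KO groups were far apart, from 9.19 ± 0.943 to 18.7 ± 2.07 CPM, and SYT4 rose by 1.02 ± 0.11 (edgeR adjusted p = 6.91e-07). SLC18A3, the vesicular transporter that loads acetylcholine, had 401 and 467 reads with DMSO and 445 and 318 with Nutlin-3a and 2, 4, 8 and 2 reads in WT. Its KO groups overlapped, with a log2 change of -0.11 ± 0.13. PCP4 had 274 and 289 reads with DMSO and 262 and 235 with Nutlin-3a, and NRSN1, a neurensin of neuronal vesicles, had 262 and 348 reads with DMSO and 252 and 237 with Nutlin-3a, with changes of -0.10 ± 0.16 and -0.23 ± 0.15. The remaining 4 were not called either: ATCAY, or caytaxin (-0.23), the postsynaptic scaffold protein FRMPD4 (-0.19), the sorting receptor SORCS3 (0.15) and the kinesin adaptor SYBU (0.22).

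Of 4 genes for adhesion and axon guidance, SEMA5B rose. SEMA5B, a semaphorin that steers axons, had 102 and 106 reads with DMSO and 300 and 155 with Nutlin-3a in KO cells and 0, 2, 3 and 3 reads in WT. Both Nutlin-3a libraries were above both DMSO libraries, but they differed from each other, at 8.15 and 4.66 CPM, against 2.85 and 2.75 with DMSO. The log2 change of 1.20 ± 0.24 (edgeR adjusted p = 7.31e-04) was the largest of the 51, and it was 0.73 with an adjusted p of 0.0514 without KO Nutlin-3a replicate 1. NFASC, an adhesion protein of the axon initial segment and nodes, had 437 and 514 reads with DMSO and 487 and 403 with Nutlin-3a, and CHL1, a relative of L1CAM, had 275 and 273 reads with DMSO and 212 and 227 with Nutlin-3a. MEGF11, a membrane protein with EGF repeats, had 205 and 245 reads with DMSO and 280 and 234 with Nutlin-3a. None of the last 3 was called, at -0.01 ± 0.11, -0.23 ± 0.14 and 0.28 ± 0.17.

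Of 5 genes for nuclear proteins, 0 rose and 1 fell. NOL4, a nucleolar protein of neural tissue, had 147 and 182 reads with DMSO and 103 and 108 with Nutlin-3a and fell by 0.55 on the log2 scale (SE 0.18; edgeR adjusted p = 0.0226), with no overlap of the KO groups in CPM. NR5A2, the nuclear receptor LRH-1, had 284 and 271 reads with DMSO and 293 and 164 with Nutlin-3a. Its Nutlin-3a replicates, at 7.96 and 4.93 CPM, differed more than the groups did, and its change was -0.21 ± 0.19. EBF3, a neuronal transcription factor of the early B-cell factor family, had 377 and 437 reads with DMSO and 382 and 297 with Nutlin-3a, and BCL11A, a zinc finger repressor, had 191 and 187 reads with DMSO and 154 and 121 with Nutlin-3a. Neither was called (-0.18 and -0.38).

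Of 5 genes for organelles and metabolism, 1 rose and 2 fell. COX6B2, the testis form of a subunit of cytochrome c oxidase, had 262 and 267 reads with DMSO and 533 and 454 with Nutlin-3a in KO cells and 0, 5, 12 and 10 reads in WT. Its KO groups were well apart, from 7.12 ± 0.280 to 14.1 ± 0.587 CPM, and it rose by 0.98 ± 0.14 (edgeR adjusted p = 1.47e-05). MAP1LC3C had 617 and 701 reads with DMSO and 497 and 410 with Nutlin-3a, and APOL4, an apolipoprotein L, had 231 and 247 reads with DMSO and 169 and 144 with Nutlin-3a. Both were lower in each Nutlin-3a library, with log2 changes of -0.46 ± 0.13 (adjusted p = 0.00804) and -0.53 ± 0.17 (adjusted p = 0.0212). PLIN2, a coat protein of lipid droplets, had 751 and 773 reads with DMSO and 810 and 784 with Nutlin-3a and only 2, 2, 3 and 5 in WT. PLIN2 and MAN1C1, a mannosidase of the Golgi with 490 and 574 reads with DMSO and 498 and 373 with Nutlin-3a, were not called, at 0.15 ± 0.09 and -0.21 ± 0.13.

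Of 3 genes for cytoskeletal proteins, KANK4 fell. KANK4, a member of the KANK family of actin regulators, had 762 and 840 reads with DMSO and 448 and 414 with Nutlin-3a in KO cells and 12, 14, 4 and 9 reads in WT. Replicates lay close together, from 21.5 ± 0.350 to 12.3 ± 0.195 CPM, and KANK4 fell by 0.81 on the log2 scale (SE 0.10; edgeR adjusted p = 3.25e-06). CLMN, or calmin, and MYBPC2, a myosin-binding protein of fast skeletal muscle, had 252, 237, 206 and 200 and 109, 164, 124 and 141 KO reads in the same order of libraries and were not called (-0.18 ± 0.14 and 0.05 ± 0.21). Of the 2 genes outside these groups, ANKRD30A, a differentiation antigen of breast epithelium, had 195 and 248 reads with DMSO and 123 and 130 with Nutlin-3a and fell by 0.72 (SE 0.19; adjusted p = 0.00644), without overlap. TMEM155, a small membrane protein, had 209, 224, 254 and 187 KO reads and did not pass (0.11 ± 0.14).

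Of 7 noncoding or unplaced genes, 2 rose and 1 fell. LINC00473, a long noncoding RNA known to follow cAMP signals, had 100 and 103 reads with DMSO and 170 and 147 with Nutlin-3a and rose by 0.72 ± 0.20 (edgeR adjusted p = 0.00788). SH3RF3-AS1 had 187 and 209 reads with DMSO and 279 and 265 with Nutlin-3a and rose by 0.54 ± 0.16 (adjusted p = 0.0127). In both the KO groups did not overlap. LOC729950, which matched no entry of the annotation, went from 9.17 and 9.29 CPM with DMSO to 5.08 and 4.15 with Nutlin-3a and fell by 0.996 on the log2 scale (SE 0.15; adjusted p = 2.30e-05), each Nutlin-3a value lying below each DMSO value. LINC00613 (-0.40 ± 0.20), LINC00993 (0.01 ± 0.23), KCNJ2-AS1 (0.42 ± 0.17) and C4orf6, now LINC01587 (-0.07 ± 0.18), were not called. The names of noncoding genes were chosen after their values were seen.

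**Figure D3:**
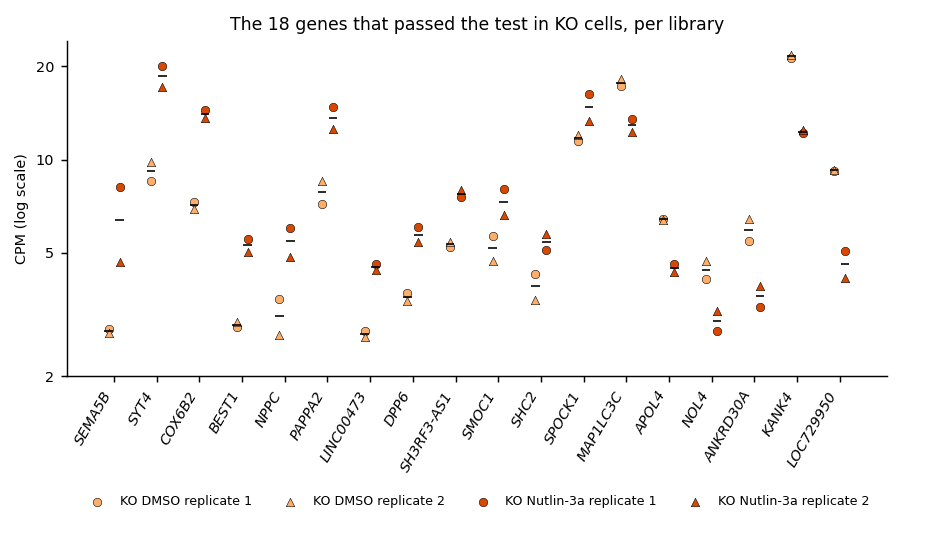
CPM on a log axis in each of the 4 KO libraries for the 18 genes that passed the test, with a dash at each group mean. The Nutlin-3a pair lies on one side of the DMSO pair in all 18, and the Nutlin-3a replicates of SEMA5B are the widest apart.

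Of the 18 genes called, 6 were called whichever library was left out, namely BEST1, COX6B2, PAPPA2 and SYT4, which rose, and KANK4 and LOC729950, which fell. The count of calls depended on single KO libraries: without any 1 of them, fewer of the 51 were called, and so were fewer of all tested genes. Of the 33 genes not called, 10 passed in at least 1 of 19 alternatives: PTGER4 and KCNJ2-AS1 in 6 each, FAM19A5 in 5, FDCSP in 2, and BCL11A, DLL1, LINC00613, MEGF11, NR5A2 and SLC1A7 in 1 each. Sums of markers of other cell types also moved between the KO groups. Those of 6 fibroblast markers went from 344 and 365 to 258 and 261 RPM. Those of 6 muscle markers, 1 of them at 0 in all libraries, went from 8.41 and 7.68 to 12.1 and 11.2. Most muscle reads were of MYH3, with 264 and 254 with DMSO and 380 and 330 with Nutlin-3a. DES did not rise, with 23 and 25 against 24 and 18, and MYOD1, MYOG and ACTC1 had at most 12 KO reads. The part of these markers in the 18 calls was not tested.

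The limits of 20 and 100 reads cut through a continuous range. Just inside, BEST1, SHC2 and CLMN had a highest WT count of 20, and SYBU and LINC00473 had a lowest KO count of 100, followed by SEMA5B with 102. Just outside, LRRTM1, KCTD16 and BRINP3 had a highest WT count of 21, TMEM108-AS1 and HRH1 a lowest KO count of 99, and TMEM255B one of 96. BRINP3 had 740 to 1119 KO reads and so exceeded most of the 51.

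By the RefSeq annotation of GRCh38.p14, used for names and order alone because the reads were aligned to GRCh37, 50 of the 51 could be placed, 44 of them protein-coding and 6 long noncoding. They lay on 19 of 24 chromosomes. Chromosome 1 held 8 (16%, against 9.95% of the placed genes of the table), among them KANK4, MAN1C1, MAP1LC3C, NFASC, NR5A2, PAPPA2 and SLC1A7. Chromosome 10 held 5 (10% against 3.85%), namely ANKRD30A, EBF3, LINC00993, SLC18A3 and SORCS3. Chromosome 4 held C4orf6, FDCSP, LINC00613 and TMEM155, and chromosome 19 ATCAY, COX6B2, MYBPC2 and SHC2. Chromosomes 2 (BCL11A, NPPC, SH3RF3-AS1), 5 (GABRP, PTGER4, SPOCK1), 6 (DLL1, LINC00473, NRSN1) and 8 (OPRK1, RSPO2, SYBU) held 3 each. CHL1 and SEMA5B lay on chromosome 3, CHN2 and DPP6 on 7, ADAMTSL2 and PLIN2 on 9, CLMN and SMOC1 on 14, NOL4 and SYT4 on 18, and APOL4 and FAM19A5 on 22. BEST1 was on chromosome 11, MEGF11 on 15, KCNJ2-AS1 on 17, PCP4 on 21 and FRMPD4 on X. Chromosomes 12, 13, 16, 20 and Y held none. ANKRD30A and LINC00993 were the only pair of the set next to each other among the genes of the table.

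**Figure D4:**
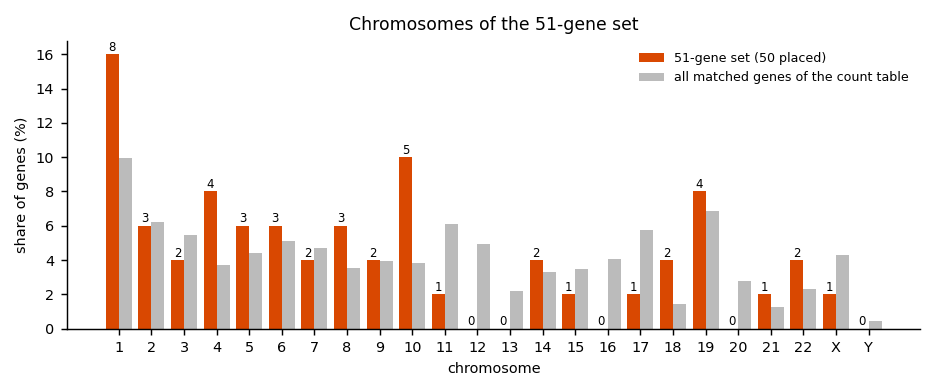
The 50 placed genes on each chromosome as a share of the set in percent (orange bars, with the number above), beside the share of placed table genes there (grey bars). Chromosomes 1 and 10 hold 8 and 5, and 5 chromosomes hold none.

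The genes on either side were described in the same KO and WT contrast that chose the set, so no test is read from them. The nearest tested neighbours came to 97 genes, of which 50 were higher in KO DMSO than in WT DMSO cells (51.6%; 31.4% of all tested genes), 18 were lower (18.6%; 30.1%) and 29 were not called by edgeR at an adjusted p of 0.05. Their median log2 difference was 0.33, against 0.01 over all tested genes. Leaving out neighbours that overlap a gene of the set in the annotation, 45 of 90 were higher. A difference of at least 4-fold with a call was found for 15 neighbours (15.5%, against 4.44% of all tested genes). Both neighbours were higher for 13 of the genes, and at least 1 was for 38.

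FDCSP lay between ODAM and CSN3, genes of the casein and enamel protein cluster. ODAM had 46, 51, 67 and 45 reads in WT and 6051, 6233, 7266 and 6695 in KO libraries, above FDCSP in each KO library, and CSN3 had 0 reads in all WT libraries and 16, 17, 11 and 12 in KO. SLC18A3 lies inside the gene for CHAT, the enzyme that makes acetylcholine, and CHAT had 1, 2, 1 and 1 WT reads and 65, 66, 75 and 54 KO reads. KCNJ2-AS1 lay beside KCNJ2, a potassium channel gene with 26, 20, 50 and 65 WT reads and 1827, 2151, 2440 and 1744 KO reads. Next to PCP4 was DSCAM, an adhesion gene with 4, 3, 105 and 1 WT reads and 437, 431, 426 and 360 KO reads, the 105 falling in WT Nutlin-3a replicate 1. The other neighbours called at least 4-fold higher were FAM71E2 beside COX6B2, FAM163B beside ADAMTSL2, PODN beside SLC1A7, SORCS1 beside SORCS3, LINC01122 beside BCL11A, CNTN2 beside NFASC, C2CD4C beside SHC2 and PRR18 beside LINC00473, with CPVL and SH3RF3, which overlap CHN2 and SH3RF3-AS1. Opposite cases occurred too: HDGFL1, beside NRSN1, had 79, 55, 165 and 123 WT reads and 1, 4, 6 and 1 KO reads, and APOL3, beside APOL4, had 530 to 630 WT and 20 to 73 KO reads. These neighbours were named after their values were seen.

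**Figure D5:**
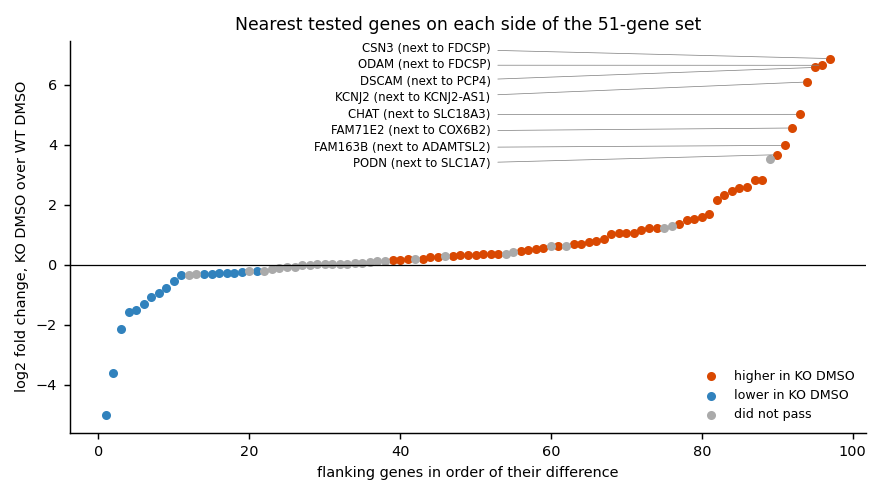
Fitted log2 difference between KO DMSO and WT DMSO cells for the 97 nearest tested neighbours, in order of size and coloured by the call. The 8 called neighbours at a log2 difference of at least 3 are named, and the fitted value of CSN3, which had 0 WT reads, depends on the prior count of the fit.

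In all, 12 of the 51 overlapped another gene of the table. Besides BEST1, PTGER4 overlaps TTC33 and DLL1 overlaps FAM120B on the opposite strand, and LINC00473 overlaps PDE10A on the same strand. PDE10A was lower in KO, with 74 to 161 WT and 22 to 66 KO reads, while LINC00473 went the other way. With Nutlin-3a in KO cells, however, PDE10A rose as LINC00473 did, by 1.26 on the log2 scale (edgeR adjusted p = 9.24e-04). Whether the 2 rises share reads was not tested. No source used here gives the strand setting of the counting, and reads of overlapping and antisense pairs may be shared or lost.

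Promoter windows, from 250 bases before to 50 after the annotated start, were found in RefSeq (GRCh38.p14) for 36 of the 51. CpG dinucleotides are the sites of DNA methylation, and windows rich in them are typical of CpG islands. A window was called CpG-rich at a GC content of at least 50% and an observed to expected CpG ratio of at least 0.6, and the set held windows of both kinds. Of the 36, 21 (58.3%) were CpG-rich, against 62.0% of 16747 promoters of the table and 76.4% of those of tested genes. Their median GC content was 66.7% (62.3% over the table), and their median ratio of observed to expected CpG was 0.74 (0.76). The windows below are printed 5′ to 3′ on the gene's strand, with each CpG in capitals, to show this range and the genes whose response was largest: FAM19A5 (chr22:48489303-48489602 on the plus strand) had the most, with 67, and NR5A2 (chr1:200027460-200027759 on the plus strand), the gene with 1 WT read, had 0. COX6B2 (chr19:55354670-55354969 on the minus strand) and SYT4 (chr18:43277441-43277740 on the minus strand), which rose, had 31 and 11, and KANK4 (chr1:62319385-62319684 on the minus strand), which fell, had 18.
FAM19A5: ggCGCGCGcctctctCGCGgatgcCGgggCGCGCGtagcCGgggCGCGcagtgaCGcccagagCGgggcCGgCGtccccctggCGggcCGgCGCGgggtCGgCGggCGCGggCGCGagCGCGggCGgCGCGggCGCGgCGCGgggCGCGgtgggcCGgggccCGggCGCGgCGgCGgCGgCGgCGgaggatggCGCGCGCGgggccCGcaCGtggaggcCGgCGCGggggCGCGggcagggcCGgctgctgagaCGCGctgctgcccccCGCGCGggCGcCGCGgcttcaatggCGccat
NR5A2: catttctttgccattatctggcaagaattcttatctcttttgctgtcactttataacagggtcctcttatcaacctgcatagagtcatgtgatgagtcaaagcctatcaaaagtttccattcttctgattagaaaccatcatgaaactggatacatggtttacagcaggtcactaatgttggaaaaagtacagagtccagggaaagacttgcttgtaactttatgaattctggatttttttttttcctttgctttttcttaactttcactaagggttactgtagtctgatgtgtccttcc
COX6B2: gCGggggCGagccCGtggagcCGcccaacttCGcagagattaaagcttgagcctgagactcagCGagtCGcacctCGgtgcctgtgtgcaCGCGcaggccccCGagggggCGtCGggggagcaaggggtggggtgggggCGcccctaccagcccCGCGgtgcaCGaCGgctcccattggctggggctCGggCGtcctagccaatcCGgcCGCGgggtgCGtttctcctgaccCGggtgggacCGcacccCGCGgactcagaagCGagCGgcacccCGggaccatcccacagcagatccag
SYT4: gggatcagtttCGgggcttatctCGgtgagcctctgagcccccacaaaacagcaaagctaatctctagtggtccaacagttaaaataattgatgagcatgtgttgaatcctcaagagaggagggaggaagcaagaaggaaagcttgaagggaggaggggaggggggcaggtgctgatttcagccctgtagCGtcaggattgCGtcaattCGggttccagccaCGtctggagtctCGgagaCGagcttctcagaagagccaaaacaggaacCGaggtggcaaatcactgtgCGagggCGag
KANK4: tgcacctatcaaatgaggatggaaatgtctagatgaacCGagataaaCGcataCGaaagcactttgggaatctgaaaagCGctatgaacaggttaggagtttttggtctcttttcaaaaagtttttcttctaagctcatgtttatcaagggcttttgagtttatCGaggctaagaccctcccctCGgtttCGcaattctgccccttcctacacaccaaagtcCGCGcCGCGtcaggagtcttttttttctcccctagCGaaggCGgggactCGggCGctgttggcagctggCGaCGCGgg

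Motifs were counted on both strands of the same windows, as letters and not as binding sites. The p53 half-site consensus was found in 4 of 36 windows (11.1%, against 6.10% of all promoters of the table), those of NFASC, NR5A2, NRSN1 and SEMA5B. SEMA5B was the only one of these 4 that was called with Nutlin-3a. Its window (chr3:123028556-123028855 on the minus strand) is printed with the half-site AAGCTTGCCC in capitals, its first base lying 71 bases before the annotated start.
SEMA5B: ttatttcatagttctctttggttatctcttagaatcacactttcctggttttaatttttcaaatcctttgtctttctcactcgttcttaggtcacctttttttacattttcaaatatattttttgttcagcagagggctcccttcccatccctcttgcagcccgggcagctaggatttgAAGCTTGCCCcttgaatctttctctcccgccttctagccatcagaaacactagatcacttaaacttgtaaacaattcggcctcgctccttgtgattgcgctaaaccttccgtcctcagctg
The letters TATAAA were found in 6 windows (16.7%, against 9.58%), those of ADAMTSL2, LINC00613, NPPC, NR5A2, PLIN2 and SMOC1. The cAMP response element TGACGTCA was found in the window of NOL4 alone (2.78%, against 2.55%). GGGCGG was found in 19 (52.8%, against 57.1%) and the E-box CANNTG in 24 (66.7%, against 65.2%). The remaining letters searched were CCAAT in 13 windows (36.1%, against 36.4%), TGACG in 11 (30.6%, against 29.3%) and TGANTCA in 2 (5.56%, against 6.09%). TGACG overlaps TGACGTCA.

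The other gene lists held few of these genes. None of the 51 was in the lists of adrenergic, mesenchymal, imprinted, homeobox, cancer-testis, protocadherin or zinc finger genes. These lists held from 30 (mesenchymal) to 657 (zinc finger) of the 25369 genes of the table. At such shares few or none of 51 genes would fall in any of them, so the absence is not read as a trait. The lists went by symbol, so the zinc finger list missed BCL11A, which encodes a zinc finger protein. The list of secreted signals held DLL1 and SEMA5B (48 of its 194 tested genes rose and 34 fell), and that of solute carriers SLC18A3 and SLC1A7. The list of proteases and inhibitors took in ADAMTSL2 and DPP6 by symbol (29 of 128 rose and 18 fell), although neither is an active protease.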

How the data were processed

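Poly(A) RNA of 8 libraries was analysed, grouped by their titles. Per the labels' protocols the libraries were strand-specific. The authors deposited whole read counts per gene and RPKM values, aligned to GRCh37 (hg19) and counted with HTSeq 0.8.0, per the submitters' processing notes, which also name TopHat2 2.1.1 with Bowtie2 2.2.9.0. No source used here gives the annotation or the strand setting.

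Group means of the counts were fitted over all 8 libraries with edgeR 4.0.16 (R 4.3.3), with TMM scaling, for the 15879 genes that filterByExpr kept. The quasi-likelihood F test was adjusted by Benjamini-Hochberg over all tested genes, and the fit was tested on simulated data. Log2 changes carry their standard errors; deposited RPKM was used for levels per length. LINC00613, at 0 in WT, entered the fold range at a floor of 3 reads over the group.

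The genes, lists, role groups and alternatives were chosen with earlier results of these data known. Genes were named by size of called change, by level within each role group, by nearness to the limits and by adjacency, and others after their values were seen. Values of 1 gene of the set are not reported here, although it stays in every count. Alternatives were DESeq2 1.42.0, limma 3.58.1 on log2(RPKM + 0.1) and log2(RPKM + 1), other scaling, filters and thresholds, a replicate block, fits of KO libraries alone and leaving out libraries. Same-numbered libraries did not deviate together (r = -0.04 in KO cells and -0.05 in WT cells over 12553 genes), and replicate numbers were not used for pairing.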

Additional observations from a re-analysis of the deposited data

How the results depend on the processing

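Across 19 alternatives, 8 of which left out 1 library each, the 18 called genes kept their direction in every one, and 5 were called in every one (BEST1, KANK4, LOC729950, PAPPA2 and SYT4). Of the 51 genes, 12 rose and 6 fell as reported. The 4 KO libraries alone gave 15 and 8, upper-quartile scaling 14 and 6, and limma on log2(RPKM + 1) 13 and 6. DESeq2's Wald test gave 6 and 3, limma on log2(RPKM + 0.1) 6 and 2 with the filter and 6 and 2 without it, and leaving out 1 library 4 to 14 and 2 to 7. Without the 3 libraries in which 17 or more genes had reads that the other replicate lacked, 14 rose and 7 fell. The median log2 change of 0.01 ranged from -0.0669 to 0.0567 with 1 library left out. The cause of these differences was not tested, apart from the smaller number of samples where libraries were left out. With the replicate number as a block, 12 rose and 6 fell, as without it, and among all genes 2887 rose and 3257 fell; the numbers do not pair the libraries. Upper-quartile scaling moved the split over all genes from 2868 higher and 3273 lower to 3211 and 2812. Limits of 10 and 200 reads would choose 9 genes, limits of 40 and 50 reads 264, and leaving out 1 library 51 to 59. The same limits set on TMM-scaled counts would choose 38 of the 51; the 13 lost include 10 of the 18 called genes, SEMA5B, SYT4, BEST1 and LOC729950 among them.

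Among the 33 genes not called, 11 changed sign under some alternative, in fits that did not call them with the new sign. For those reported here, log2 changes with 1 library left out ran from -0.171 to 0.285 for DLL1, -0.157 to 0.225 for GABRP, -0.0669 to 0.0849 for RSPO2, -0.051 to 0.239 for TMEM155, -0.0271 to 0.347 for SORCS3, -0.167 to 0.315 for MYBPC2, -0.0924 to 0.108 for LINC00993, -0.0766 to 0.0509 for NFASC, -0.60 to 0.0849 for NR5A2 and -0.287 to 0.0463 for SLC18A3. Without the 3 libraries together they were -0.108 for MYBPC2, -0.0578 for LINC00993, 0.104 for NR5A2, 0.0639 for SLC18A3 and 0.0624 for NFASC. LINC00993 was at -0.0047 without the low-count filter. NFASC was at 0.0179 with upper-quartile scaling, 0.0075 in the KO libraries alone, 0.0192 and 0.0113 with limma at pseudocounts of 0.1 and 1, and 0.0192 with limma at 0.1 and no filter. NR5A2 was called lower without KO Nutlin-3a replicate 1 (-0.60, adjusted p = 0.0419).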

Other observations

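The opposite pattern, at least 100 reads in every WT library and at most 20 in every KO library, was met by 28 genes. All 28 were tested for the response to Nutlin-3a in WT cells, where they were the active ones. By edgeR, 5 rose (17.9%, with 29.4% of all tested genes rising) and 4 fell (14.3%, with 29.2% falling), with a median log2 change of 0.01 against 0.02 over all tested genes. Promoter windows were found for 18 of them. Their median GC content was 58.8%, 7 of 18 (38.9%) were CpG-rich and their median ratio of observed to expected CpG was 0.47, against 66.7%, 58.3% and 0.74 in the 36 windows of genes active only in KO cells. The difference between the 2 sets was not tested.

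CNTN2, an axonal adhesion gene beside NFASC, had 8, 4, 25 and 33 reads in the WT libraries and 44, 41, 442 and 455 in the KO libraries, so that its reads with Nutlin-3a stood far above those with DMSO in KO cells. Its log2 change with Nutlin-3a in KO cells was 3.48 (edgeR adjusted p = 1.54e-11), while NFASC itself changed by -0.01. The gene was named after its values were seen.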
